A study of Arabidopsis thaliana with 12 samples.

Results

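The response of Arabidopsis thaliana inflorescences to 4 h of dexamethasone (Dex) was read from the 4 arrays labelled 4 h, of 12 arrays in the study. Every plant carried 35S:HAN-GR in the Landsberg erecta background, and the tissue was inflorescences with flower buds of stages 1 to 9. The groups were plants given 10 µM Dex and plants given a mock solution, collected 4, 12 or 72 h later. Each array set Dex RNA against mock RNA of one time, in opposite dyes, and the 4 arrays of each time are biological replicates by their labels. Mock plants carried the fusion too, and there were no Dex-treated plants without it, so an effect of Dex itself and one of HAN-GR cannot be told apart. The 35S promoter is active in most tissues, so the fusion was not limited to the cells that normally use HAN. In bulk tissue, fewer cells of a type and less RNA per cell cannot be told apart either.

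HANABA TARANU (HAN) is a zinc-finger transcription factor of the GATA family that is active at the boundaries between the meristem and new organs and between floral whorls. Mutants form fused sepals and too few petals and stamens. Fused to the glucocorticoid receptor, the protein waits in the cytoplasm until Dex binds the receptor part and allows entry into the nucleus. The first hours after Dex are the usual window in which genes close to such a factor are looked for. HAN and the other GATA genes had no named probe among those used and are not analysed here.

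The deposited value of a probe is a log2 ratio of the channels of one array. Values at the limits of the scale, -6.64 and 6.64, made up 11.5% to 14.5% of a 4 h array and were set missing, because such a value is at most a bound. Nearly all lay at the lower limit on replicates 1 and 4 (2690 and 2572 values) and at the upper limit on replicates 2 and 3 (3250 and 3239). At a limit on all 4 arrays were 2093 features, none of them at the same limit on each. These values were therefore not read as changes. A feature is a named locus or an unnamed probe, and 18125 of 25875 features had a value on at least 3 arrays at each time and were tested, 10654 of them named. Each array was centred on its median. Values below are means of the centred log2 ratios over the 4 arrays with the SD, and an adjusted p is that of limma over all 18125 features, with a threshold of 0.05.

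Before any result, the sign needs a statement. No source used here gives the direction of the ratio, and all signs below read as Dex over mock, which is likely but not settled. With the limit values missing, every pair of 4 h arrays correlated above 0 across features, but not equally. Replicates 1 and 4 correlated at 0.55 and replicates 2 and 3 at 0.64, while pairs of replicate 1 or 4 with replicate 2 or 3 lay at 0.18 to 0.29. With the limit values kept, the pairs formed by replicate 1 or 4 with replicate 2 or 3 correlated at -0.82 to -0.80. Blank spots, which hold no gene, had a median of -6.64 on replicates 1 and 4 and of 6.64 on replicates 2 and 3. On the 8 arrays of 12 and 72 h the blank spots were at 6.64 wherever Dex RNA was labelled Cy5 and at -6.64 wherever it was labelled Cy3. At 4 h Dex RNA was labelled Cy5 on replicates 1 and 2, so the blank spots of replicates 1 and 3 went against their labelled dye. The pairs of like labelled dye, replicates 1 and 2 and replicates 3 and 4, correlated at 0.20 and 0.18 with the limit values missing. With the dye taken from the blank spots instead, 2346 features passed and 1992 of the 2009 calls below were among them. If the sign were turned, every rise would be a fall, every fall a rise, and the counts of each direction would change places.

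After 4 h, 2009 features passed, which is 11.1% of those tested. Of these, 763 rose (4.21%) and 1246 fell (6.87%). With the sign turned these would be 1246 rises and 763 falls. Falls were also larger: 419 features fell and 153 rose by more than 1 on the log2 scale, and 54 fell and 16 rose by more than 2. The median call was 0.65 for rises and -0.80 for falls, against 0.0031 over all features tested and a median SD between arrays of 0.21. All 4 arrays gave the same sign for 1977 of the 1989 calls with a value on each array, and 20 calls rested on 3 arrays. Without replicate 2 the count was 1330 (392 higher), and without replicate 4 it was 1336 (432 higher). Among named loci 395 rose (3.71%) and 605 fell (5.68%), and 1009 of the 7471 unnamed probes passed (13.5%). In either direction 9.39% of named loci passed, the share beside which each family count below is to be read. No family share was tested.

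**Figure D1:**
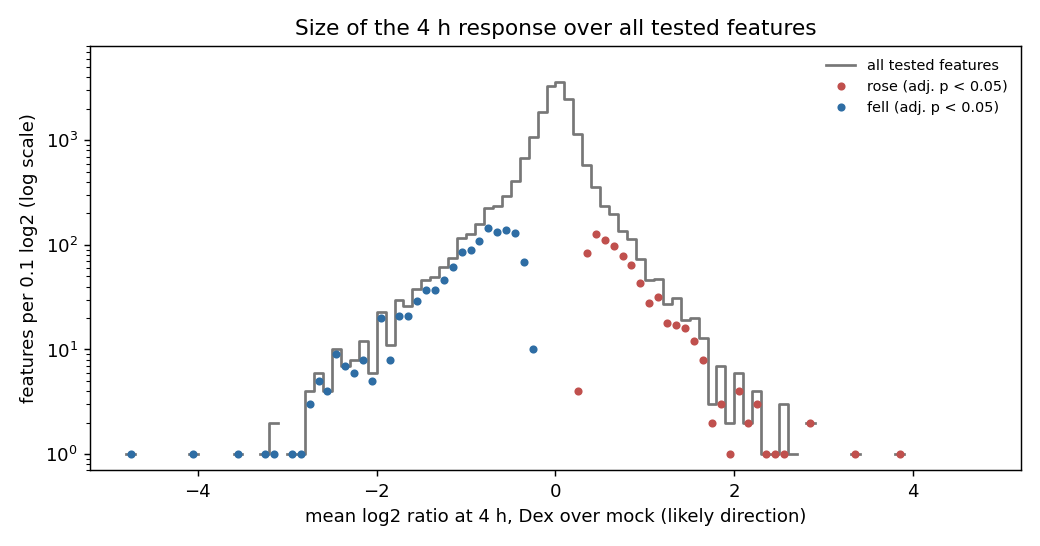
Number of features (vertical axis, log scale) by mean log2 ratio at 4 h in bins of 0.1 (horizontal axis). The grey line counts all 18125 tested features and the points count the 763 that rose (red) and the 1246 that fell (blue); the falls reach further from 0.

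Among named loci past the threshold with one sign on all 4 arrays, the 3 largest falls were in AT5G50130, AT2G43620 and AT3G11680. AT5G50130 had log2 ratios of -3.20, -3.20, -3.25 and -3.42 on replicates 1 to 4, a 9.64-fold fall (adjusted p = 3.1e-06). AT2G43620, of the chitinase family, which cuts the cell wall polymer of fungi, had -3.16, -3.16, -2.87 and -3.39. AT3G11680, of the aluminium-activated malate transporters, which are anion channels, had -3.00, -2.92, -2.86 and -3.16. In these 3 genes every array lay far below 0 and the arrays differed little. The bHLH factor gene AT1G61660 had -2.73, -2.76, -2.21 and -2.82, and replicate 3 was the highest of the 4. AT1G73740 had -2.40, -2.67, -2.57 and -2.17, and AT4G04690 had -2.43, -2.20, -2.26 and -2.33. The lowest adjusted p-values at 4 h were those of AT3G11680, AT1G61660, AT1G73740, AT4G04690 and AT1G26410, at 1.1e-06 to 1.4e-06, and all 5 genes fell.

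Other large falls came from proteins of several kinds. UBC16, a ubiquitin-conjugating enzyme, was at -2.32 ± 0.18 (4.98-fold), while none of the other 11 tested genes of that family passed. AT1G31490 was at -2.55 ± 0.21, AT5G59080 at -2.17 ± 0.25 and AT1G63350 at -2.47 ± 0.08. AT1G56380, at -2.49 ± 0.57, missed the threshold when replicate 2, 3 or 4 was left out (adjusted p = 0.073, 0.099 and 0.067). AT1G63350 missed it when values at the limits were kept (adjusted p = 0.18).

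Among the named loci that rose with one sign on all 4 arrays, AT1G70390 was the highest, with 2.87, 2.63, 2.24 and 2.29 (5.68-fold; adjusted p = 4.3e-05). COR15B, a chloroplast protein that protects membranes in the cold, had 2.26, 2.67, 2.12 and 2.22. Every array of both genes was above 2. AT1G33760, a transcription factor gene of the AP2/ERF family, had 2.18, 2.20, 1.77 and 2.24, and replicate 3 was the lowest. SAL2, a relative of the SAL1 nucleotide phosphatase, was at 1.82 ± 0.17, AT4G25620 at 1.61 ± 0.25 and AT3G14060 at 2.14 ± 0.51. AT1G50040 had 3.24, 0.89, 1.19 and 1.16, so replicate 1 stood apart from the other 3 arrays. AT3G30840 was at 1.74 ± 0.06 and missed the threshold when replicate 3 or 4 was left out (adjusted p = 0.085 and 0.090). When values at the limits were kept, SAL2 and AT1G50040 missed it (adjusted p = 0.27 and 0.59). AT1G50040 also missed it with a fit of the 4 h arrays alone (adjusted p = 0.12) and with the replicate number as a block (0.065), and without replicate 1 it was at 1.05 and still passed (0.014).

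**Figure D2:**
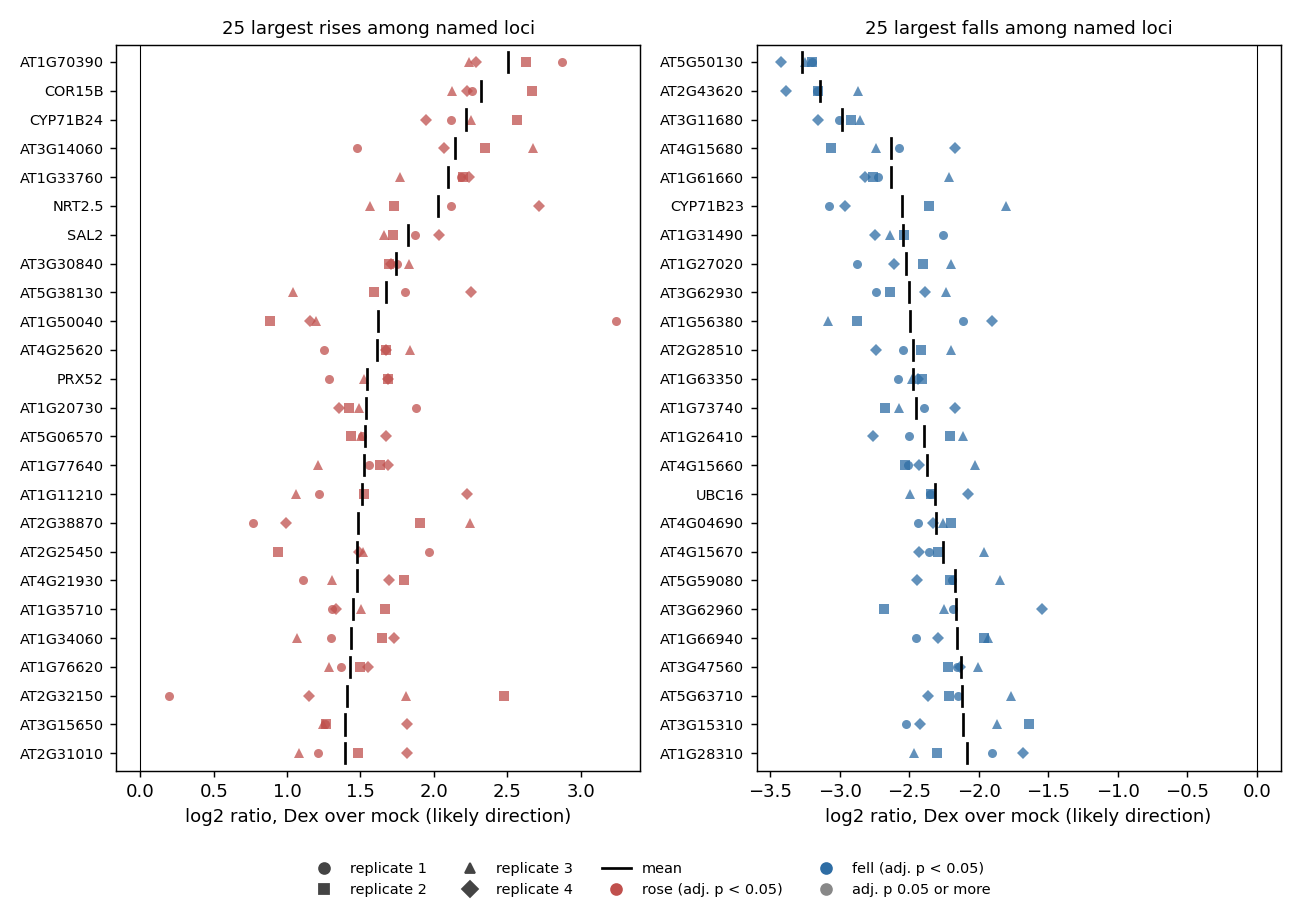
Log2 ratio on each of the 4 arrays of 4 h (marker shape) for the 25 named loci with the largest rises (left) and falls (right) among those past the threshold with one sign on all arrays; black bars are means. Each fall lies more than 1 below 0 on every array, while AT1G50040 has replicate 1 far above the other arrays.

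The CC-type glutaredoxins are small redox proteins peculiar to land plants, and several of them bind TGA transcription factors. Of 16 tested members 8 fell and 0 rose, against 9.39% of named loci passing in either direction, and the median was -0.93. AT2G30540 had -4.49, -5.01 and -4.87 on replicates 1 to 3 and no usable value on replicate 4, a 27.7-fold fall (adjusted p = 2.3e-06). AT4G15680 had -2.57, -3.06, -2.73 and -2.17 (adjusted p = 0.00028), and AT3G62930 had -2.74, -2.63, -2.23 and -2.39 (adjusted p = 0.00012). Every value of these 3 genes was more than 2 below 0. AT4G15660 was at -2.37 ± 0.24, AT4G15670 at -2.26 ± 0.21 and AT3G62960 at -2.16 ± 0.47. AT2G47870 and AT4G15700 were lower by less, at -0.98 ± 0.33 and -0.89 ± 0.21.

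AT1G06830, a further member, had -3.19, -3.30, -2.98 and -3.28, a spread as small as that of the members that passed, yet its adjusted p was 0.064. The spread of a feature is shared over all 12 arrays, and with a fit of the 4 h arrays alone AT1G06830 passed (adjusted p = 0.011). ROXY1, which is needed for petal formation, had -0.23, 0.22, 0.34 and 0.26 (adjusted p = 0.61), and ROXY2, which acts with it in anthers, was at -0.51 ± 0.26 (adjusted p = 0.21). GRX480, which is induced by salicylic acid, had -0.63, 1.74, 1.26 and 0.80, with replicate 1 below 0 and the others above (adjusted p = 0.24). Without replicate 1 GRX480 passed at 1.30 (adjusted p = 0.026), as it did with array weights (0.0029). AT4G15660, AT4G15670, AT4G15680 and AT4G15700 are close copies, and whether their probes tell them apart was not tested; their values differ from one another. AT2G47870 did not pass without replicate 2 or 3 (adjusted p = 0.050 and 0.061), nor AT4G15700 when replicate 1, 2 or 4 was left out (adjusted p = 0.051, 0.056 and 0.055).

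**Figure D3:**
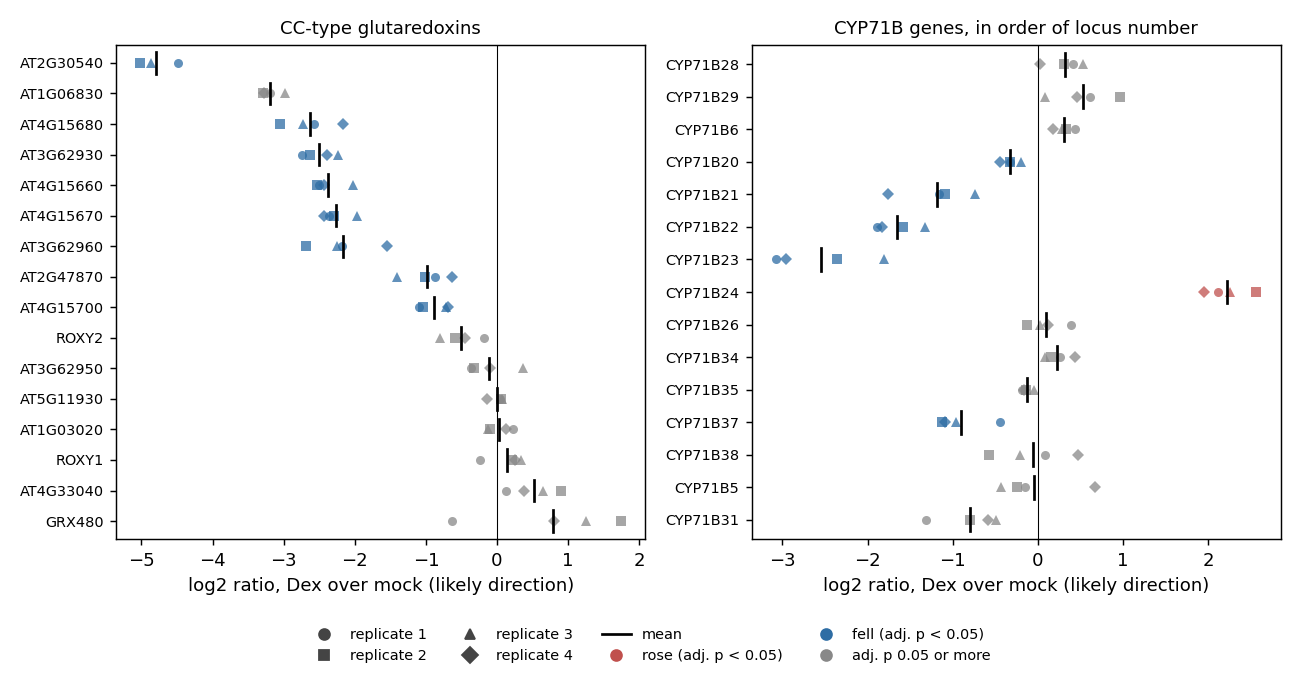
Log2 ratio on each 4 h array (marker shape) for the 16 tested CC-type glutaredoxin genes (left, ordered by mean) and the tested CYP71B genes (right, ordered by locus); black bars are means and grey markers are genes that did not pass. In the CYP71B series CYP71B20 to CYP71B23 lie below 0 and CYP71B24 above 2.

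Cytochrome P450 enzymes oxidise small molecules, and the CYP71B genes form a tandem array. Among 17 tested P450 genes 5 fell and 1 rose (35.3%, beside 9.39% of named loci), with a median over the 17 of -0.063. All of these calls were of the CYP71B subfamily. Only 21 of 240 listed P450 genes had a named probe, so whether the calls were confined to that subfamily cannot be told. CYP71B23 had -3.07, -2.36, -1.80 and -2.96 (5.85-fold; adjusted p = 1.5e-05), and its neighbour CYP71B22 had -1.89, -1.59, -1.32 and -1.83. CYP71B21, next to CYP71B22, had -1.16, -1.09, -0.73 and -1.76. In all 3 genes replicate 3 was the one nearest to 0. CYP71B24, of the same array, went the other way, at 2.11, 2.56, 2.25 and 1.95 (4.65-fold; adjusted p = 4.3e-06). The falls and the rise did not overlap on any array, which their choice as calls of opposite direction made likely. CYP71B37 was at -0.91 ± 0.32 (adjusted p = 0.0038). CYP71B20, the smallest change at -0.33 ± 0.10, did not pass without any one of the 4 arrays (adjusted p = 0.084 to 0.22), nor without 12 h replicate 3 or 4 or 72 h replicate 1, 2 or 4 (0.057 to 0.078).

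UDP-glycosyltransferases attach sugars to hormones and defence compounds. Of 43 tested, 10 fell and 3 rose, and the median was 0.014; among all named loci 5.68% fell and 3.71% rose. UGT73C1, which can glucosylate cytokinins, had -1.72, -1.43, -1.58 and -1.93 (3.17-fold; adjusted p = 6.2e-05). UGT73B5 had -1.68, -1.62, -1.10 and -1.52, and UGT85A2 had -1.26, -1.23, -1.29 and -1.61. Every array of these 3 genes was more than 1 below 0. UGT88A1 (-1.12 ± 0.27) and UGT76E11 (-0.94 ± 0.15) also fell, as did IAGLU, an enzyme that glucosylates the auxin indole-3-acetic acid, at -0.71 ± 0.32. UGT76E1 went up, with 0.85, 1.48, 1.42 and 1.43, although it is of the same subfamily as UGT76E11 and UGT76E12 (-0.67 ± 0.20). UGT74F1, which glucosylates salicylic acid, was at 0.74 ± 0.11. UGT76C2, a cytokinin N-glucosyltransferase, had -1.03, 0.30, 0.62 and -0.76, with both signs among the arrays (adjusted p = 0.74). IAGLU did not pass without replicate 4 (adjusted p = 0.052) and UGT76E12 not when replicate 2 or 4 was left out (adjusted p = 0.052 and 0.060), while UGT85A2 lost its call when values at the limits were kept (adjusted p = 0.77).

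Further enzymes of defence and specialised metabolism followed. Berberine bridge enzyme-like proteins oxidise carbohydrates and alcohols, and of 14 tested 4 fell and 1 rose (35.7%, beside 9.39% of named loci). AT1G26410 had -2.50, -2.20, -2.11 and -2.76 and AT2G34810 had -1.71, -2.15, -2.12 and -1.96, so both were far below 0 on every array. AT1G30740 of the same family was at 1.16 ± 0.29 (adjusted p = 0.0031). Glucosinolates are the precursors of the mustard oils of this plant family, and the 3 tested dioxygenases of their metabolism all passed, beside 9.39% of named loci. AT2G25450 was added to this list singly by locus, and no share is read from so short a list. AOP3 had -1.08, -1.36, -1.21 and -1.76, whereas AT2G25450 had 1.97, 0.93, 1.52 and 1.49, and AOP1 was at 0.46 ± 0.15. AOP1 missed the threshold when replicate 1, 2 or 4 was left out (adjusted p = 0.11, 0.12 and 0.12). The glucosinolate transporter gene GTR2 had -1.01, -1.21, -1.04 and -1.55 (adjusted p = 0.00039), and GTR1 was at 0.25 ± 0.37 (adjusted p = 0.39).

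Genes outside the families also belong here, named after their values were seen. FMO, a flavin monooxygenase gene, had -1.75, -1.65, -1.47 and -1.92 (adjusted p = 1.2e-05). CHAT, which makes a volatile of wounded leaves, was at -1.01 ± 0.25, and WSD1, a wax ester synthase gene, at -0.97 ± 0.28. DPL1, which breaks down sphingolipid bases, had -0.97, -1.06, -1.09 and -0.87. Of 12 glutathione S-transferase genes 1 fell and 1 rose (16.7%, beside 9.39% of named loci). The fall was in GSTU20, with -0.90, -0.96, -0.81 and -0.93. Of 23 serine carboxypeptidase-like genes 2 fell (8.70%, near the share of named loci). For scpl33 the values were -6.61, -3.33 and -2.16 on replicates 1, 2 and 4, a wide spread, and it missed the threshold when replicate 1 or 2 was left out (adjusted p = 0.13 and 0.077). With values at the limits kept the fitted value of scpl33 was -1.37 (adjusted p = 0.98), and its call was also lost with a fit of the 4 h arrays alone and with the replicate number as a block (adjusted p = 0.13 in each). SCPL27 had -0.76, -2.18, -0.52 and -0.44, with replicate 2 far below the others, and with a fit of the 4 h arrays alone it did not pass (adjusted p = 0.13).

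Aux/IAA proteins repress auxin responses and are themselves induced by auxin, and of 6 tested 3 fell and 0 rose, with a median of -0.31, beside 5.68% of named loci that fell. IAA29 had -1.06, -2.08, -2.24 and -0.67, and replicates 2 and 3 were the lower pair. IAA31 was at -1.04 ± 0.20 (adjusted p = 0.0038), and IAA18 had -0.59, -0.63, -0.54 and -0.66 (adjusted p = 0.00085). Every array of both IAA31 and IAA18 was below 0, as is common among calls. IAA15 was at -0.01 ± 0.13 and IAA33, measured on 3 arrays, at 0.39 ± 0.03 (adjusted p = 0.054). The call of IAA29 was lost when replicate 2 or 3 was left out (adjusted p = 0.064 and 0.059). None of the 4 tested GH3 genes, whose enzymes couple auxin or jasmonate to amino acids, and none of the 3 tested auxin synthesis genes passed in limma, and 1 of the GH3 genes and 2 of the auxin synthesis genes had an unadjusted p below 0.05.

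On the cytokinin side, ARR15, a type-A response regulator that cytokinin induces and that dampens the response, had -1.73, -1.86, -2.15 and -1.18. It was the only 1 of 4 tested response regulators to pass (25%, beside 9.39% of named loci). RR16, of the same type, had 0.36, -0.56, -0.33 and -0.27 (adjusted p = 0.74). Of 4 purine permease and azaguanine transporter genes, whose proteins carry purines and in some cases cytokinin, 2 fell (50%, beside 9.39% of named loci passing). PUP18 had -1.32, -1.37, -0.80 and -1.23, and AZG1 had -1.12, -0.82, -0.73 and -0.88. No array of PUP18 or AZG1 was near 0. Methyltransferases of the SABATH family make volatile esters of hormones, and of 7 tested 2 fell and 1 rose (42.9%). The purine permease and SABATH lists were put together after the values were seen. JMT, which methylates jasmonate, had -0.84, -0.77, -0.98 and -0.91, and BSMT1, which methylates salicylate and benzoate, had -0.41, -1.13, -0.86 and -1.04. AT4G36470, a member without a symbol in the gene table, had 1.45, 1.27, 1.14 and 1.38 (adjusted p = 6.3e-05).

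Transcription factor families did not all move alike. Of 30 tested AP2/ERF genes 6 rose and 4 fell, a share of 33.3% beside 9.39% of named loci, and the median was 0.14. AT1G77640 had 1.56, 1.64, 1.21 and 1.69 (adjusted p = 0.00014). AT5G61590 had -1.63, -1.67, -1.41 and -1.39, and AT5G07580 had -1.26, -1.18, -1.17 and -1.11. In AT5G61590 and AT5G07580 the arrays lay close together, all more than 1 below 0. AT5G65130 was at 0.71 ± 0.19 and tny (TINY) at 0.56 ± 0.38. The call of tny was lost when replicate 3 or 4 was left out (adjusted p = 0.055 and 0.12) and with quantile normalisation (adjusted p = 0.13).

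Dof factors, zinc-finger proteins of plants, had 4 falls and 1 rise among 10 tested (50%, beside 9.39% of named loci). The Dof list was put together after the values were seen. AT2G28510 had -2.54, -2.42, -2.20 and -2.74 (5.56-fold; adjusted p = 2.3e-06), and AT1G28310 had -1.91, -2.30, -2.46 and -1.68. AT2G28810 was at -1.10 ± 0.12 and AT4G24060 at -0.62 ± 0.15. Of 22 bHLH genes 2 fell, a share of 9.09% and near that of named loci. They were AT1G61660, given above, and ATMYC1, a gene of epidermal cell fate, at -0.97 ± 0.28 (adjusted p = 0.00059). AT1G61660 was added to the bHLH list singly by locus, with earlier results of these data known, and the other members by symbol. Of 6 WRKY genes 1 fell (16.7%), WRKY6, which acts in senescence and phosphate starvation, with -1.91, -1.21, -0.88 and -1.76. Of 16 bZIP genes 2 fell, a share of 12.5% and also near that of named loci. They were BZIP34 at -0.57 ± 0.20 and bZIP42 with -2.59, -0.21, -1.07 and -1.24, a range wider than its mean. The call of bZIP42 was lost when replicate 1, 3 or 4 was left out (adjusted p = 0.057, 0.056 and 0.079), with a fit of the 4 h arrays alone (0.20) and with the replicate number as a block (0.051). With array weights bZIP42 was at -0.69 (adjusted p = 0.063).

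MADS-box factors specify floral organs. Of 26 tested 1 passed, 3.85% beside 9.39% of named loci, a gap of very few genes that was not tested. That gene, AGL16, rose by 0.44 ± 0.15 and did not pass without any one of the 4 arrays (adjusted p = 0.059 to 0.18), nor without any of the 12 h arrays or 72 h replicate 1 or 4 (0.053 to 0.063).

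Of 29 tested genes of flower organs, meristem and boundaries 3 rose and 6 fell (31.0%, beside 9.39% of named loci), and the median was 0.012. RBE, a zinc-finger gene of petal growth, had 0.48, 0.93, 0.71 and 0.65. JAG, which promotes organ growth, had -0.67, -0.86, -0.93 and -0.80, and YAB3, a YABBY gene of the abaxial side, had -0.51, -0.47, -0.76 and -0.70. No array of RBE was below 0 and none of JAG or YAB3 above it, as is common among calls. JKD, a zinc-finger gene known from root patterning, had -0.52, -0.51, -0.68 and -0.81 (adjusted p = 0.0013), and its relative IDD16 was at -0.84 ± 0.26 on 3 arrays. PTL, which limits growth between sepals, was at -0.46 ± 0.11 and NGA2, a gene of organ margins and the style, at -0.43 ± 0.20. ULT1, which restricts meristem size, was at 0.53 ± 0.17 and AGO7, which acts in the small RNA pathway of leaf polarity, at 0.47 ± 0.15.

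These floral calls were small, and most were lost when a single array was left out, whichever of several it was. JKD and RBE passed without each of the 4 arrays in turn. ULT1 did not pass without any one of them (adjusted p = 0.068 to 0.20), nor without any of the 12 h arrays or 72 h replicate 4 (0.051 to 0.071), and AGO7 missed the threshold when replicate 1, 2 or 4 was left out (adjusted p = 0.11, 0.089 and 0.14). NGA2 failed when replicate 1, 3 or 4 was left out (adjusted p = 0.16, 0.11 and 0.11) or when 12 h replicate 2 or 4 or 72 h replicate 4 was (0.054 to 0.056), and PTL failed when replicate 2, 3 or 4 was left out (adjusted p = 0.079, 0.11 and 0.097). When replicate 3 or 4 was left out, JAG (adjusted p = 0.062 and 0.060) and YAB3 (0.055 and 0.060) also missed the threshold. For IDD16 the call was lost when replicate 1 or 3 was left out (adjusted p = 0.18 and 0.13). Among the rest, UFO was at 0.06 ± 0.31, the stem cell peptide gene CLV3 at 0.14 ± 0.39 on 3 arrays, and INO, which marks the outer integument of the ovule, at 0.33 ± 0.28. LOB, a boundary gene, had -3.07, -0.17, -0.14 and -0.92 (adjusted p = 0.11), with replicate 1 far from the others. LOB passed without replicate 2 (-1.51, adjusted p = 0.039) and with quantile normalisation (0.047), and without replicate 1 its value was -0.42 (adjusted p = 0.32).

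Of 40 marker genes listed for tapetum and pollen, epidermis, vasculature, green leaf tissue, meristem and ovule, 8 were tested. Only SWEET11, a sucrose exporter of the phloem and the vascular entry of the list, passed. Ratios hold no level of a gene in a sample, so the labelled tissue could not be checked against its markers.

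Transport genes moved in both directions. SWEET11 had -0.66, -0.77, -1.20 and -1.10 (adjusted p = 0.0014), the only call among 14 SWEET genes (7.14%, beside 9.39% of named loci). Of 9 nitrate and peptide transporters 3 fell and 1 rose (44.4%). Apart from GTR2 the falls were AT1G68570, at -0.97 ± 0.06 (adjusted p = 0.0003), and AT3G21670, at -0.85 ± 0.26. NRT2.5, a high-affinity nitrate transporter of starved plants, had 2.11, 1.73, 1.56 and 2.72, all well above 0. Its call was lost when replicate 1, 2 or 4 was left out (adjusted p = 0.092, 0.085 and 0.12) and when values at the limits were kept (adjusted p = 0.56). AT1G25480, the second aluminium-activated malate transporter gene that fell of 8 tested (25%), was at -0.77 ± 0.38. OCT5, an organic cation transporter gene named after its values were seen, had -1.82, -1.32, -1.30 and -1.95 (adjusted p = 0.00015).

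Cell wall genes had calls in both directions. Expansins loosen walls, and of 16 tested 4 rose and 3 fell (43.8%, beside 9.39% of named loci), with a median of -0.11. EXPA15 was at 1.38 ± 0.53, with replicate 2 the highest array, and EXLA2 had 1.18, 1.02, 1.08 and 1.37. EXLA1 (1.02 ± 0.28) and EXPA7 (0.65 ± 0.14) rose as well. EXPB3 had -1.06, -0.85, -0.94 and -0.87, and EXPA4 (-0.90 ± 0.18) and EXPA20 (-0.45 ± 0.16) also fell. None of these 7 genes had arrays of both signs, as was so for 1977 of the 1989 calls with a value on each array. EXPA4 missed the threshold when replicate 1, 3 or 4 was left out (adjusted p = 0.078, 0.074 and 0.11), as did EXPA20 (0.086, 0.055 and 0.085). XTH32, an enzyme that cuts and rejoins xyloglucan, was at -0.96 ± 0.14 (adjusted p = 0.00032), and of 5 such genes 1 fell and 1 rose (40%). None of 13 tested family GH9 endoglucanase genes passed in limma, and 1 had an unadjusted p below 0.05.

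A list of monolignol and lignin genes, put together after the values were seen, held 6 rises and 0 falls among 10 tested and a median of 0.72, beside 3.71% of named loci that rose, and so is a description only. PRX52, a peroxidase that polymerises lignin in stems, had 1.29, 1.69, 1.52 and 1.68 (2.92-fold). The beta-glucosidases BGLU45 and BGLU46, which release monolignols from their glucosides, had 0.88, 0.98, 1.52 and 0.99 and 0.92, 0.93, 1.68 and 0.95, and in both genes replicate 3 was the highest. CCR2, a cinnamoyl-CoA reductase, had 0.54, 1.37, 1.45 and 0.42, with replicates 2 and 3 above the other pair. ALDH2C4, which oxidises coniferaldehyde and sinapaldehyde, was at 0.64 ± 0.19, and CCOAMT, of the caffeoyl-CoA methyltransferase family, at 0.80 ± 0.30. The members that did not pass included HCT, at -0.04 ± 0.20, and the monolignol glucosyltransferases UGT72E1 (0.10 ± 0.07) and UGT72E2 (0.11 ± 0.37). BGLU47, of the same beta-glucosidase group, was at 0.26 ± 0.27 (adjusted p = 0.45). When replicate 1, 3 or 4 was left out CCOAMT missed the threshold (adjusted p = 0.10, 0.070 and 0.086), and when values at the limits were kept PRX52 did too (adjusted p = 0.65). With a fit of the 4 h arrays alone, CCR2 and ALDH2C4 did not pass (adjusted p = 0.12 and 0.056).

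Beyond lignin, 5 of 40 class III peroxidase genes fell and 2 rose (17.5%, beside 9.39% of named loci), with a median of -0.069. AT5G39580 had -2.29, -1.51, -0.75 and -1.09, all below 0 but over a wide range, and AT4G37520 was at -0.89 ± 0.24. Among 14 beta-glucosidase genes 1 fell and 2 rose (21.4%). The fall was in BGLU44, with -1.61, -1.38, -1.63 and -1.78 (adjusted p = 4.6e-05).

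Cold and dehydration genes were mostly near 0. Of 18 tested 3 rose and 0 fell (16.7%, beside 9.39% of named loci), and the median was 0.073. After COR15B came TIL, a lipocalin induced by heat and cold, with 1.04, 1.65, 1.55 and 1.01, and COR27, a cold-induced gene of the clock, at 0.60 ± 0.27. KIN1 had -0.23, 1.58, 1.34 and -0.14 and KIN2 had -0.09, 1.88, 1.26 and 0.23, so that replicates 2 and 3 were high and replicates 1 and 4 near 0 (adjusted p = 0.47 and 0.26). With a fit of the 4 h arrays alone and dye from the blank spots both passed (adjusted p = 0.013 and 0.029), and KIN2 passed without replicate 1 (1.35, adjusted p = 0.030) and with array weights (0.021). These pairs of arrays are those whose blank spots share a sign; the part of the dye in these values was not tested. COR47 was at 0.12 ± 0.36. Among 8 circadian and light-clock genes 2 rose (25%), COR27 and CCL, the latter at 1.20 ± 0.45. GI, which sets the period of the clock, was at -0.23 ± 0.37. COR27 missed the threshold when replicate 1, 2 or 4 was left out (adjusted p = 0.20, 0.12 and 0.20), and CCL when 2, 3 or 4 was (0.13, 0.18 and 0.13). COR27 was also lost without any of the 12 h arrays or 72 h replicate 2 or 4 (adjusted p = 0.053 to 0.075), and CCL without 12 h replicate 3 (0.055).

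A few single genes stood out beside the families, again named after their values were seen. SIM, an inhibitor of cyclin-dependent kinases that starts endoreduplication in trichomes, had -1.39, -1.28, -1.41 and -1.36 (2.56-fold; adjusted p = 0.0015). EXO, a brassinosteroid-induced gene of cell growth, had 1.03, 1.75, 1.40 and 1.25, but missed the threshold when replicate 2, 3 or 4 was left out (adjusted p = 0.056, 0.056 and 0.057). PPDK, an enzyme of pyruvate metabolism, was at -1.06 ± 0.40 and ASPGB1, an asparaginase gene, at 1.12 ± 0.33. The arrays of SIM were closest together of these 4 genes. Of 11 U-box ubiquitin ligase genes 1 fell and 1 rose (18.2%, beside 9.39% of named loci). PUB25 fell, with -1.88, -1.39, -1.62 and -1.17, and PUB19, an abscisic acid response gene, rose, with 0.31, 1.21, 0.56 and 1.64. PUB19 missed the threshold when replicate 2, 3 or 4 was left out (adjusted p = 0.15, 0.055 and 0.15). Among 14 tetraspanin membrane protein genes 1 fell, TET5, at -1.14 ± 0.13, and 1 rose (14.3%). No call was made among 12 histone genes and 8 genes of chlorophyll-binding and photosystem proteins, whose ranges were -0.07 to 0.25 and -0.20 to 0.21, and 0 of either list had an unadjusted p below 0.05 in limma. With 9.39% of named loci passing, lists of this size would hold about 1 call each.

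**Figure D4:**
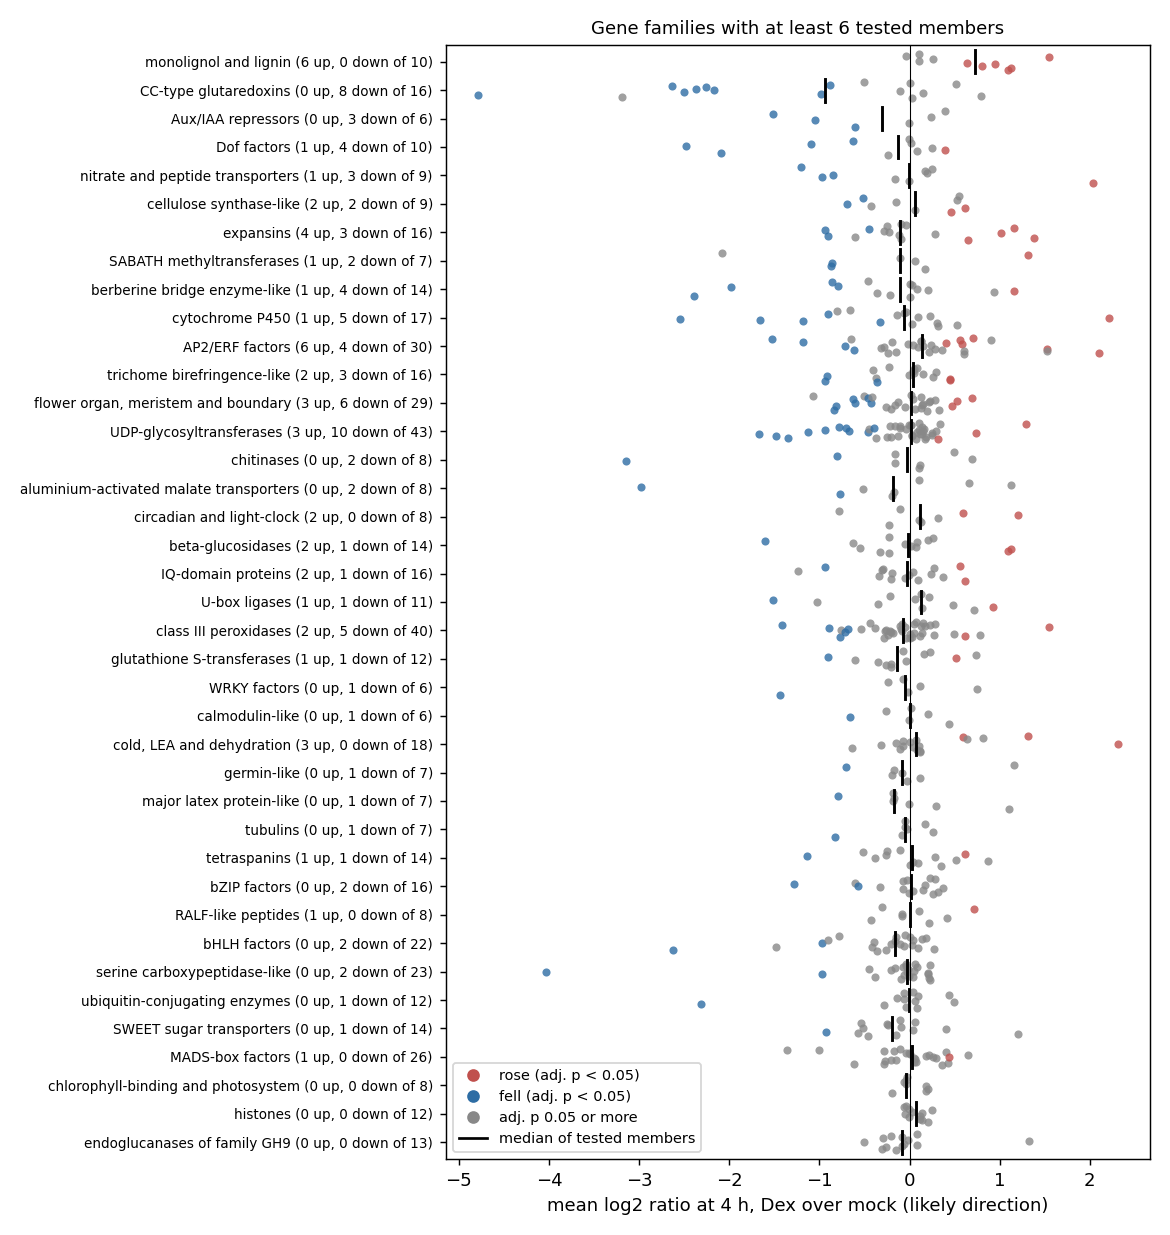
Mean log2 ratio at 4 h of each tested member (points) of the gene families with at least 6 tested members, ordered by the share of members that passed; black bars are family medians and the counts of rises and falls stand beside each name. Of the 10 monolignol and lignin genes 6 rose, the lowest lying at -0.04, and the CC-type glutaredoxins reach -4.79, while histones, photosystem genes and GH9 endoglucanases have no call.

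Of 4372 pairs of adjacent named loci that were both tested, 48 (1.1%) had both members past the threshold, near the 0.881% that 9.39% of named loci would give if neighbours passed independently. Of these, 42 had the same sign and 6 had opposite signs. In 11 pairs each gene was changed by at least 1 on the log2 scale. They include the runs CYP71B21 to CYP71B23 and AT4G15660 to AT4G15680 and the pair of beta-glucosidases BGLU45 and BGLU46. AT1G27020 had -2.88, -2.40, -2.20 and -2.61, and AT1G27030 beside it had -1.58, -1.74, -1.67 and -1.36. AT1G78850 (-1.16 ± 0.39) and AT1G78860 (-1.25 ± 0.28) fell to like degrees, as did AT1G22460 (-1.29 ± 0.26) and AT1G22470 (-1.03 ± 0.35). AT2G25450 and AT2G25460 (1.03 ± 0.40) were both higher. In the remaining pairs the genes went apart. 4CL8, of the 4-coumarate:CoA ligase family, had -1.71, -1.45, -1.43 and -1.61, and the adjacent AT5G38130 had 1.80, 1.59, 1.04 and 2.26. AT5G35737 was at 1.14 ± 0.42 and AT5G35740 at -1.11 ± 0.15. None of the 11 pairs had identical rows in the table. Probes of close copies or of overlapping genes could still share signal, which was not tested.

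The later arrays show how many of the 4 h calls were also made at 12 and 72 h. All times share the spread of a feature in the fit, so their calls are not independent. Of the 1246 features that fell at 4 h, 880 also fell at 12 h, which is 70.6% of the 4 h list and 46.3% of the 1900 features that fell at 12 h. At 72 h 634 of them fell, 50.9% of the 4 h list and 32.2% of the 1967 that fell at 72 h, and 581 fell at all 3 times. Of the 763 that rose at 4 h, 329 also rose at 12 h (43.1% of that list, 34.0% of 967) and 321 at 72 h (42.1% of that list, 17.9% of 1791), and 226 rose at all 3 times. The background of calls in either direction was 15.8% of features at 12 h and 20.7% at 72 h, while the overlaps count 1 direction only. By direction, 1900 of the 18125 features fell and 967 rose at 12 h, and 1967 fell and 1791 rose at 72 h. The median of the features that fell was -0.73 at 12 h and -0.40 at 72 h, against -0.80 at 4 h. For those that rose it was 0.34 at 12 h and 0.30 at 72 h, against 0.65 at 4 h. The features were chosen by their 4 h values, so later medians nearer to 0 can follow from that choice. Whether falls and rises differed in how long they lasted was not tested.

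The difference between times was tested in the same fit. Over all features 441 differed between 12 and 4 h (2.43%) and 1549 between 72 and 4 h (8.55%). Of the features that fell at 4 h, 110 were significantly less negative or above 0 at 12 h and 53 more negative, and at 72 h 369 and 61. Of those that rose, 69 were lower at 12 h than at 4 h and 12 higher, and at 72 h 184 and 16. Calls of opposite sign at 4 and 72 h were made for 68 of the falls and 25 of the rises. These features were chosen by their 4 h values, so the counts describe the 4 h list and not the response as a whole.

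Single genes of each course were picked after their values were seen. AT3G11680 (-2.77 ± 0.09 at 12 h and -3.15 ± 0.33 at 72 h), AT4G04690 (-2.42 ± 0.07 and -1.97 ± 0.10) and AT3G62930 (-3.12 ± 0.29 and -2.96 ± 0.85) stayed low. AT1G63350 was at 0.03 ± 0.14 at 12 h and AT1G26410 at 0.20 ± 0.08, both over 2 below 0 at 4 h. PUB25 (-0.17 ± 0.13 at 12 h), WRKY6 (-0.10 ± 0.22), AT1G78860 (-0.05 ± 0.13) and UGT76E1 (-0.00 ± 0.17) were likewise near 0. In other genes the value lay further from 0 at a later time than at 4 h. TINY, the tny of the table, reached 2.41 ± 0.18 at 12 h and 2.30 ± 0.22 at 72 h, AOP3 -3.17 ± 0.39 and -3.48 ± 0.39, TET5 -1.88 ± 0.16 and -2.42 ± 0.31, and AT3G21670 -2.28 ± 0.21 and -2.78 ± 0.54. BGLU47, which did not pass at 4 h, was at 3.33 ± 0.49 at 12 h. PUP18 was at -1.55 ± 0.35 at 12 h and at 1.88 ± 0.56 at 72 h, AT5G39580 at 0.38 ± 0.29 and 2.12 ± 0.37, and AT1G27030 at 0.92 ± 0.26 and 0.72 ± 0.27, each on the other side of 0 from its 4 h value by 72 h.

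**Figure D5:**
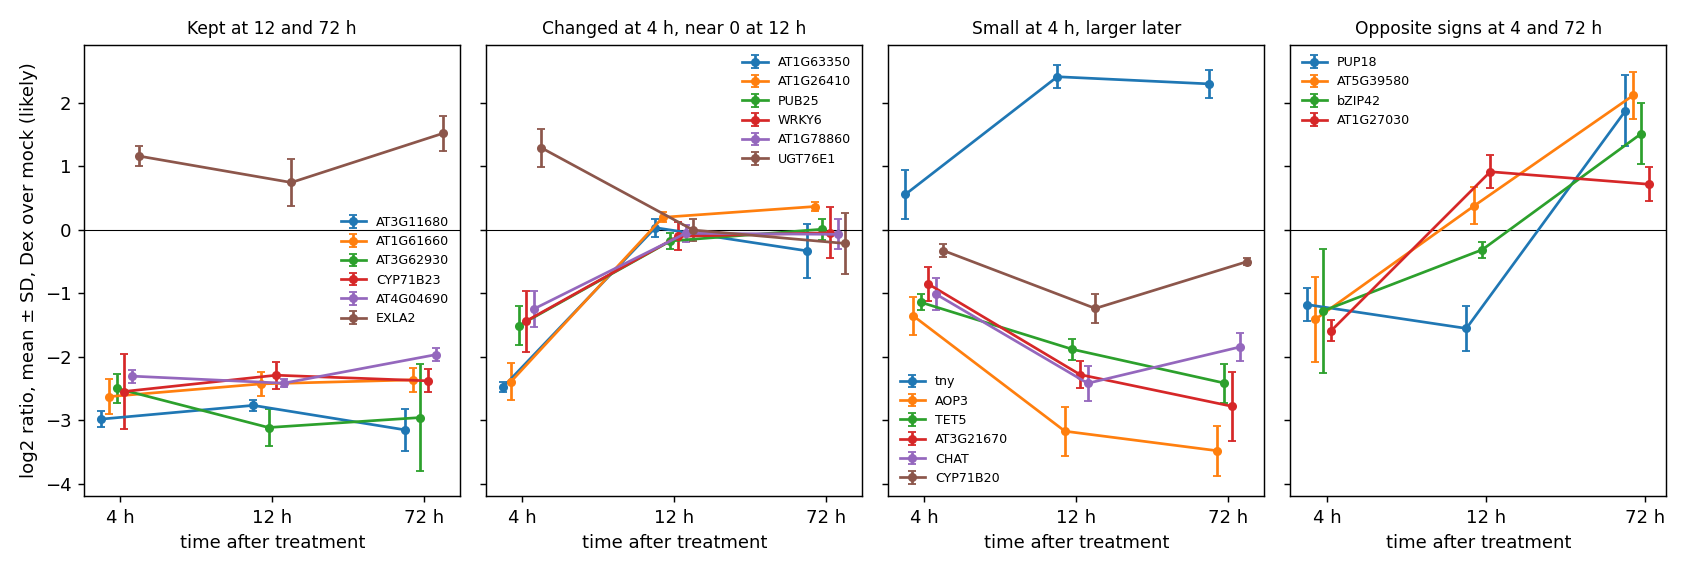
Mean log2 ratio with SD over 4 arrays (bars) at 4, 12 and 72 h for genes picked after their values were seen, in 4 panels by course, with the times evenly spaced. AT3G11680 stays near -3 at all times, AT1G26410 is near 0 from 12 h, tny rises above 2 at 12 h and PUP18 changes sign between 12 and 72 h.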

How the data were processed

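RNA of Dex-treated and mock-treated inflorescences was co-hybridised on 12 dual-colour oligonucleotide arrays, 4 per time. The deposited table holds log2 ratios made by the authors. Its base was read from the values, whose limits of -6.64 and 6.64 are log2 of 0.01 and of 100. How they were background-corrected, normalised and centred, and which channel is on top, is not given in the sources used here. Of 26540 rows, 450 controls and blanks were left out, which left 26090 gene probes. Of these, 13960 had 1 gene in the platform annotation, 0 several and 12130 none. The IDs of 13912 matched the TAIR10.1 gene table, giving 13698 loci, and probes of a locus were averaged. Columns without a sample numbered 0. Arrays of 4 h held 22329 to 22385 gene probes with a value. A ratio does not show how far a spot was above background, and the number of arrays limits the precision. Arrays also differed in the weight limma gave them, 0.123 to 3.84.

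Values at -6.64 or 6.64 were set missing, features with a value on at least 3 of 4 arrays at each time were kept, and each array was centred on its median. A mean per time and a term for the labelled dye were fitted across the 12 arrays by limma 3.58.1 (lmFit and eBayes, R 4.3.3), so all times share one spread. The 4 h mean was tested against 0, two-sided, with Benjamini-Hochberg adjustment and a threshold of 0.05. The fit was tested on simulated data.

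Named genes are the 25 largest rises and falls among named loci past the threshold with one sign on 4 arrays, the 5 lowest adjusted p-values, up to 6 members per direction of each gene family, all measured hormone, floral, cold and clock genes of interest, and adjacent loci that both passed with at least 1 on the log2 scale. Family lists were written by hand from general knowledge of loci and symbols, and gene roles for loci without a symbol rest on them. The members and the lists were chosen with earlier results of these data known, and the lists of Dof, ubiquitin-conjugating, tetraspanin, SABATH, GH9, purine permease and lignin genes after 4 h values were seen. Correlations between arrays of different times could not show whether the replicate numbers pair the samples, and numbers were not used as pairs in the main fit.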

Additional observations from a re-analysis of the deposited data

Results flagged for a closer look

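In 13 of the named genes, 1 of the 4 arrays lay far from the other 3 at 4 h, with a gap to its nearest neighbour, as a share of the range, above Dixon's critical value. This was tested in 155 named genes with 4 values, and chance flags about 1 in 20 such groups. The single high array was that of AT1G61660 (-2.21 on replicate 3), AT1G50040 (3.24 on replicate 1), BGLU45 (1.52 on replicate 3), BGLU46 (1.68 on replicate 3), AT1G22460 (-0.91 on replicate 4) and TUB5 (-0.60 on replicate 2). The single low array was that of AT1G33760 (1.77 on replicate 3), UGT85A2 (-1.61 on replicate 4), UGT76E11 (-1.16 on replicate 4), UGT76E1 (0.85 on replicate 1), CCOAMT (0.36 on replicate 2), TBL28 (-2.32 on replicate 1) and CSLC04 (-1.25 on replicate 1).

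For the following genes the 4 h value differed from that of a later time by the test of the difference itself (limma, adjusted p under 0.05), and the numbers are differences on the log2 scale, later time minus 4 h. Among genes that fell at 4 h, the 12 h value was less negative or above 0 in AT2G43620 (1.68), AT1G27020 (2.00), AT1G63350 (2.51), AT1G73740 (1.01), AT1G26410 (2.59), UGT73C1 (1.41), UGT73B5 (1.21), WRKY6 (1.34), ATMYC1 (1.34), AT5G39580 (1.79), PUB25 (1.34), PPDK (0.98), AT1G27030 (2.51), AT1G78850 (1.06), AT1G78860 (1.19) and TBL38 (0.88). It was more negative at 12 h in CYP71B20 (-0.91), AT3G21670 (-1.43), BGLU44 (-1.15), AT4G37520 (-1.28), AOP3 (-1.82), GSTU20 (-1.13), TET5 (-0.74) and CHAT (-1.41). Among genes that rose at 4 h, the 12 h value was lower in AT1G77640 (-1.47), UGT76E1 (-1.30), CCOAMT (-1.27) and AT5G35737 (-1.17). It was higher still at 12 h in AT2G25450 (1.42) and tny (1.86). Without a call at 4 h, the 12 h value differed in BGLU47 (3.03).

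Among genes that fell at 4 h, the 72 h value was less negative or above 0 in AT5G50130 (1.30), AT2G43620 (2.05), AT1G27020 (1.55), AT1G56380 (3.47), AT2G28510 (1.51), AT1G63350 (2.18), AT1G73740 (1.11), AT1G26410 (2.76), UBC16 (1.64), AT3G62960 (1.32), CYP71B37 (0.92), UGT73C1 (1.04), UGT73B5 (1.38), UGT88A1 (0.59), PUP18 (3.06), JMT (0.75), BSMT1 (0.93), AT5G61590 (1.70), AT5G07580 (1.33), WRKY6 (1.39), bZIP42 (2.80), ATMYC1 (1.15), AT4G24060 (0.56), SWEET11 (0.85), EXPB3 (1.02), AT5G39580 (3.53), PUB25 (1.52), FMO (0.64), PPDK (1.35), AT1G27030 (2.31), 4CL8 (1.12), AT1G78850 (1.14), AT1G78860 (1.18), TBL38 (0.48) and CSLC04 (1.00). It was more negative at 72 h in AT3G21670 (-1.93), AT4G37520 (-1.04), AOP3 (-2.13), TET5 (-1.28) and CHAT (-0.84). Among genes that rose at 4 h, the 72 h value was lower in CYP71B24 (-1.28), NRT2.5 (-3.30), AT3G30840 (-2.69), AT4G25620 (-0.98), AT1G77640 (-1.04), UGT76E1 (-1.51), ASPGB1 (-0.81), AT2G25460 (-1.14), AT5G35737 (-1.40) and IQD18 (-0.87). It was higher still at 72 h in tny (1.74). Without a call at 4 h, the 72 h value differed in INO (-1.17) and UGT72E1 (0.53).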

How the results depend on the processing

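The count of 2009 features that changed at 4 h, 763 higher and 1246 lower, was recomputed under other settings. It was 4619 with array weights (2190 higher, 2429 lower), 1145 with only the 4 h arrays fitted (341 higher, 804 lower) and 1200 at adjusted p under 0.01 (387 higher, 813 lower). Features higher numbered 1203 with quantile normalisation, 1203 with equal median absolute deviations and 451 where at least 1.5-fold was asked for. Without single arrays the count lay between 1330 and 2733, with 392 to 1098 higher and 904 to 1635 lower; the extremes came without 4 h replicate 2 (1330), without 4 h replicate 4 (904 lower) and without 72 h replicate 3 (2733). No feature called in both the main and another setting had opposite signs in them, and 9 of the 2009 calls had a fitted value of opposite sign, not itself a call, with limit values kept. Same-numbered arrays of 4 and 72 h correlated below 0 in their deviations (-0.22 to -0.09), and those of 4 and 12 h above 0 (0.18 to 0.32). Arrays of different times correlated above 0 where their blank spots had the same sign and below 0 where they had opposite signs, whatever their numbers. These correlations therefore cannot show whether the numbers pair the samples. With the replicate number as a block 1664 features passed, 1608 of them calls of the main setting, and with dye from the blank spots as well 2183. The settings that take dye from the blank spots were chosen after seeing the data.

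Of 140 named genes that passed, 96 passed under every setting run for them. The most calls were lost with only the 4 h arrays fitted (30), without 4 h replicate 4 (25) and with limit values kept (20). Limit values lay almost all on the same side within a 4 h array and on opposite sides between arrays. With limit values kept the fitted value of IDD16 was 1.04 (adjusted p = 0.89), of opposite sign to its fall. Besides the losses given above, calls of AGL16, AGO7, AOP1, AT1G56380, CCL, CCOAMT, COR27, CYP71B20, NGA2, PTL, PUB19 and ULT1 were lost with limit values kept (adjusted p = 0.051 to 0.76). Those of AGL16, AGO7, AOP1, AT1G25480, AT2G25460, BSMT1, BZIP34, CCL, COR27, CYP71B20, EXPA20, IAA29, IAGLU, IDD16, IQD23, NGA2, PTL, PUB19, UGT76E12, ULT1 and tny were lost with only the 4 h arrays fitted (0.050 to 0.17). Those of AGL16, AOP1, AT1G56380, COR27, CYP71B20, IDD16, NRT2.5, ULT1 and tny were lost with the replicate block (0.053 to 0.12). Of genes that did not pass, AT1G06830, IAA33, ROXY2, INO and GTR1 passed with array weights (0.0011 to 0.048), IAA33 with dye from the blank spots (0.023), and INO and GTR1 without 4 h replicate 3 (0.044 and 0.035). The causes of these shifts were not tested.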

Other observations

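Some further gene groups are given here, of which all but the tubulins were listed after the 4 h values were seen. Trichome birefringence-like proteins acetylate wall polysaccharides, and of 16 tested 3 fell and 2 rose (31.25%, beside 9.39% of named loci passing). TBL38 had -1.08, -0.87, -0.77 and -1.01 on replicates 1 to 4 (limma adjusted p = 6.5e-05), all close together. TBL28 had -2.32, -0.55, -0.47 and -0.34, with replicate 1 far below the others, and missed the threshold when replicate 3 or 4 was left out (adjusted p = 0.066 and 0.058). Of 9 cellulose synthase-like genes, which build wall polysaccharides other than cellulose, 2 fell and 2 rose (44.4%). Among them were CSLC04 at -0.69 ± 0.38 and CSLB03 at 0.62 ± 0.14 (SD, n = 4). IQ-domain proteins bind calmodulin and microtubules, and of 16 tested 1 fell and 2 rose (18.75%). The fall was in iqd33, at -0.94 ± 0.25, and the rises in IQD23 (0.56 ± 0.10) and IQD18 (0.61 ± 0.27). Of 7 tubulin genes TUB5 was the 1 that fell (14.3%), with -0.92, -0.60, -0.91 and -0.90. With a fit of the 4 h arrays alone, CSLC04, IQD18 and TBL28 did not pass (adjusted p = 0.077, 0.079 and 0.22).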
